A study of Mus musculus with 17 samples.

Results

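The genes described here are 10 genes of neutrophil granules and of the neutrophil cytosol, out of 45777 genes in the count table. The members are a list of gene symbols. Mpo and Elane stand for the primary granules, Ngp, Camp, Ltf and Lcn2 for the secondary granules, Mmp8 and Retnlg for tertiary granules and late neutrophils, and S100a8 and S100a9 for the cytosol. All 10 were present once each and passed the filter on low counts. The mRNA came from lungs of wild-type male C57BL/6 mice, obtained at the age of 6 weeks and kept for a week before the left lung was irradiated with 65 or 75 Gy in 1 fraction. Lungs were taken at 2 or 6 weeks, beside non-irradiated controls of each time. According to the study's methods the RNA of irradiated mice was taken from the lesions, whereas the labels name lung tissue. There were 3 libraries in each of the 6 groups, except for 2 in the group of 65 Gy at 6 weeks, of which another library was not analysed here. Libraries are named by their numbers, and nothing in the labels tells whether a number stands for 1 mouse, so that p-values measure the spread between these libraries.

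Neutrophils fill their granules while they mature in the bone marrow, and each kind of granule holds what the cell transcribes at that stage. Genes of primary granules, such as Mpo (myeloperoxidase) and Elane (neutrophil elastase), are transcribed in promyelocytes, and those of secondary granules, such as Ngp, Camp and Ltf, in myelocytes and metamyelocytes. Neutrophils that circulate or enter the lung have largely stopped transcribing both sets, but they hold abundant mRNA of S100a8 and S100a9, the subunits of calprotectin. Lcn2 and Ltf are also expressed outside neutrophils, Lcn2 in epithelial cells and macrophages under inflammation and Ltf in glandular epithelium.

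Between 46764569 and 66797879 reads were counted on genes per library, with a median of 57608149. Levels are given as CPM, the counts of a gene relative to the depth of its library as scaled by TMM. Groups were compared with edgeR's quasi-likelihood test over 22052 genes, and called genes are those with an adjusted p (Benjamini-Hochberg) up to 0.05 that moved by 1 or more on the log2 scale. The lung markers Sftpc, Ager, Scgb1a1 and Cldn5 summed to between 14951 and 35422 CPM in each library. Library 3126 of the 2-week controls and library 3135 of the 6-week controls stood apart in Mpo, Elane, Ngp and Camp, and calls on these genes are given with and without them. The libraries were whole tissue, in which fewer cells of a type and less RNA per cell cannot be told apart.

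The granule genes did not move as 1 group. Lcn2 rose after both doses at both times, and S100a8, S100a9 and Retnlg fell at 2 weeks after both doses. In the comparisons of a single dose Ngp and Camp were called lower at 75 Gy and 6 weeks only, and Ltf and Mmp8 were called in no comparison. At 65 Gy and 2 weeks 4 of the 10 genes were called, against 4.35% of all genes tested. Of these, 1 was higher (3.47% of all genes) and 3 were lower (0.88%). At 75 Gy and 2 weeks 4 were called (7.74% of all genes), again 1 higher (5.67%) and 3 lower (2.07%). At 65 Gy and 6 weeks 1 was called (5.28%), which was higher (4.34%), and none was lower (0.943%). At 75 Gy and 6 weeks 3 were called (10.4%), 1 higher (7.28%) and 2 lower (3.13%). The median log2 fold change of the 10 genes was -2.17, -1.92, -1.16 and -0.93 in these 4 comparisons, and that of all genes lay between -0.0085 and 0.04. The median of the 10 includes Mpo and Elane, for which groups held libraries without counts. It also includes Ngp and Camp, whose falls were smaller or turned without 1 high control library of the time. A median without these control libraries was not computed. The doses of a time share their control libraries. When the 4 irradiated groups were set jointly against the controls, 7 of the 10 genes were called (8.48% of all genes). They were 1 higher (6.85%) and 6 lower (1.64%). Among the 6, Camp was not called and Mpo changed direction when control libraries 3126 and 3135 were both left out.

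Libraries of irradiated lungs and their controls did not overlap for some of the genes. At 65 Gy and 2 weeks 2 of the 10 lay wholly above the controls (15.9% of all genes) and 4 wholly below (13.5%). At 75 Gy and 2 weeks 1 lay above (15.5%) and 4 below (14.8%). At 6 weeks 1 lay above and 2 below after 65 Gy (28.2% and 28.1%), and 1 lay above and 3 below after 75 Gy (29.4% and 27.7%). Over all 11 irradiated and 6 control libraries Lcn2 lay wholly above (6.07% of all genes) and Retnlg wholly below (4.5%).

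**Figure D1:**
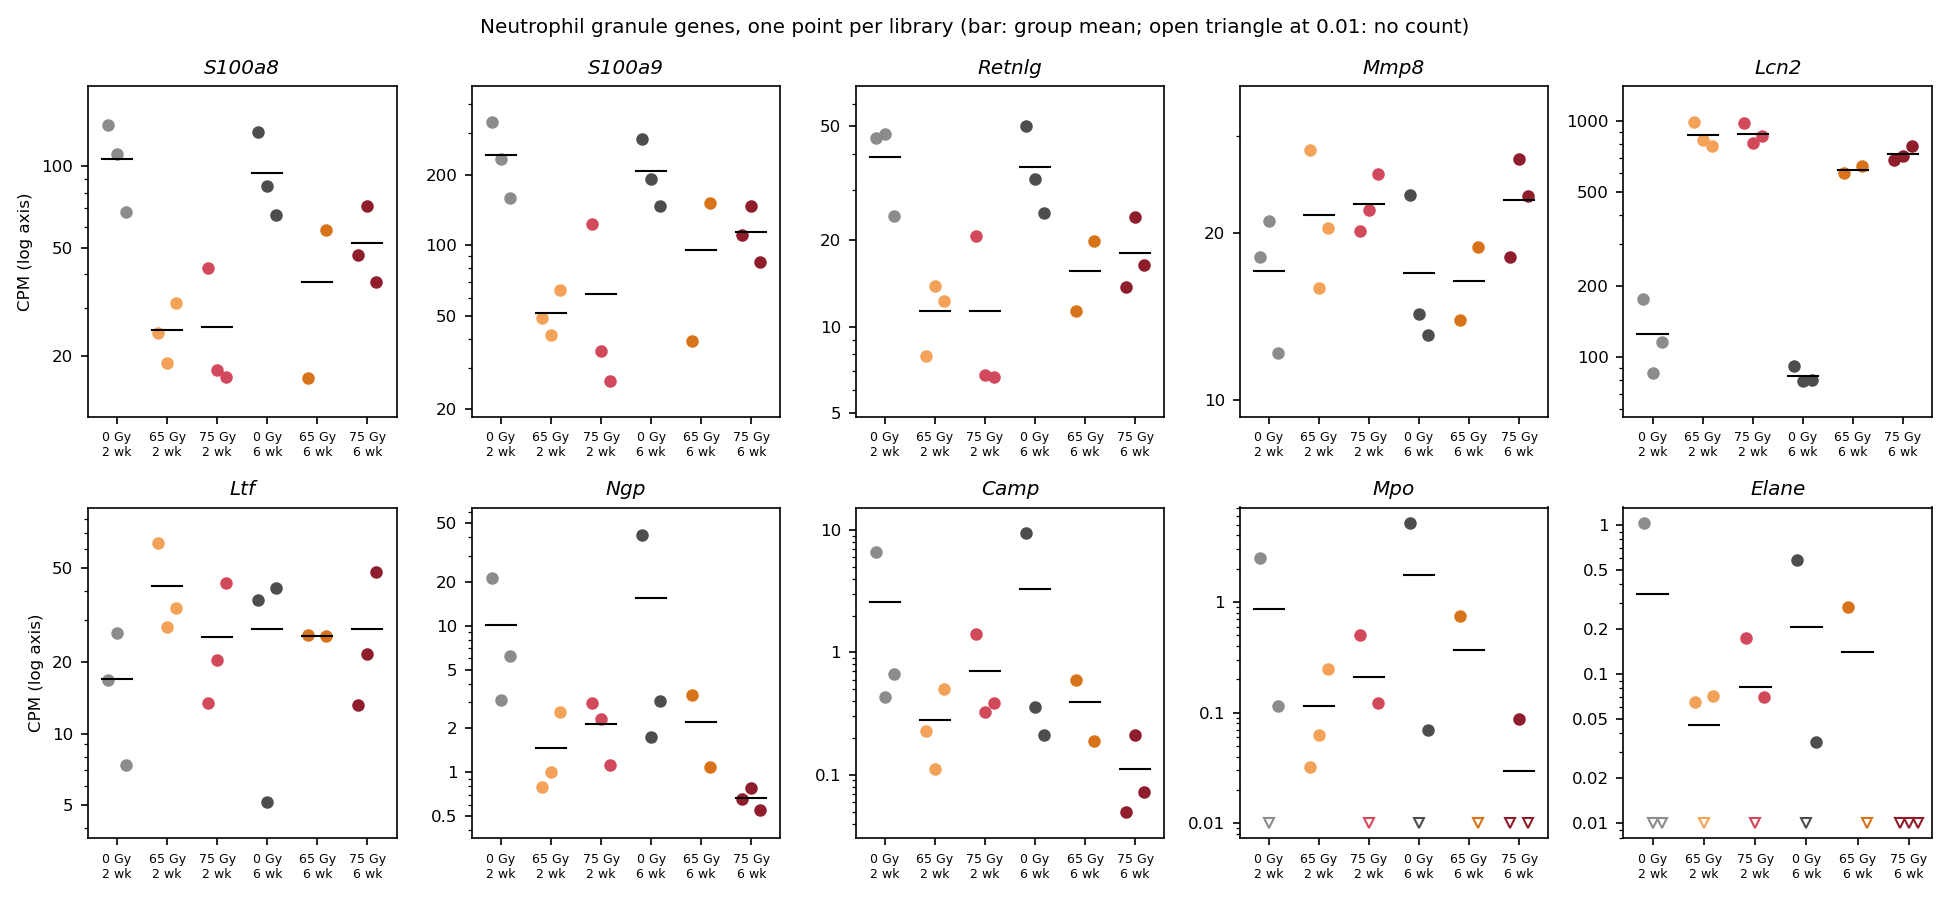
Levels of the 10 genes in each library, in CPM on log axes, 1 panel per gene, with libraries ordered by number within a group and a bar at the group mean. Open triangles at 0.01 mark libraries with no count. The 11 irradiated libraries lie above the 6 controls for Lcn2, from 602 to 992 CPM, and the 2 highest values of Ngp, Camp, Mpo and Elane are those of 1 control library at each time.

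Of the 10 genes, 3 lie in 1 part of chromosome 9 of the build GRCm38.p6. Camp is at chr9:109847377-109849456 on the minus strand, Ngp 570352 bases further at chr9:110419808-110423012 and Ltf another 596280 bases on at chr9:111019292-111042766, both on the plus strand. S100a8 and S100a9 are neighbours on chromosome 3, at chr3:90669071-90670034 (plus) and chr3:90692630-90695721 (minus), with 22596 bases between them. Lcn2 is at chr2:32384637-32387739 (minus). Sequence before the RefSeq start is shown for 5 genes that bear the contrast described here, Lcn2, which rose, the S100 pair, which fell, and Ngp and Camp, whose controls were unequal. Of the 250 bases before that start, exons of transcripts in GENCODE M21 cover 197 in Lcn2, 161 in Camp, 93 in S100a8, 61 in Ngp and 0 in S100a9. The longest stretch outside these exons is printed, from RefSeq (GRCm38.p6) and 5′ to 3′ on the strand of the gene. Capitals mark matches on either strand to TTGCNNAA (a C/EBP core) and GAGGAA (a PU.1 core).
Lcn2, chr2:32387798-32387850: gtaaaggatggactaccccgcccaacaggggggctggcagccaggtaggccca
S100a8, chr3:90668821-90668977: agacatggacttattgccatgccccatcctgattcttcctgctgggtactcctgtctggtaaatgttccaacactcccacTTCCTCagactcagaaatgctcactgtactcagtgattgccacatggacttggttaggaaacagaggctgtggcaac
S100a9, chr3:90695722-90695971: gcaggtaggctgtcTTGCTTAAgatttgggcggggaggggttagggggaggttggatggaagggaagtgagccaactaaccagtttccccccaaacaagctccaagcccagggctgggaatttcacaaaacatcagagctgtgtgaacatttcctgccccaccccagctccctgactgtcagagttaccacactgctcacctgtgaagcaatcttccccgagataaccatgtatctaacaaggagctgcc
Ngp, chr9:110419558-110419746: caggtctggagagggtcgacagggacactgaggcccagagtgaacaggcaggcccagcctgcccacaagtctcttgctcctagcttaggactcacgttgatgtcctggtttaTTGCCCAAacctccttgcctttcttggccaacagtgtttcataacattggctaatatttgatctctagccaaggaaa
Camp, chr9:109849618-109849706: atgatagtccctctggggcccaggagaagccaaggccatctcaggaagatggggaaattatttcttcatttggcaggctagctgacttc

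C/EBP and PU.1 proteins are transcription factors of the granulocyte lineage. In the whole windows of 250 bases, exons included, TTGCNNAA was found in 6 of the 10 genes (Ngp, Ltf, Lcn2, Mmp8, Retnlg and S100a9) and in 9.56% of 32851 promoter entries. GAGGAA was also found in 6 of the 10 (Mpo, Elane, Ltf, Lcn2, Mmp8 and S100a8) and in 23.3% of all. Both matches of Lcn2, and the matches of Ngp and S100a8 that are nearest to the RefSeq start, lie in exons of GENCODE and are not printed. The same holds for the only match to TATAAA on the strand of the gene, in S100a8, a word found in 7.59% of all windows. The NF-kappaB core (GGGAA and CC around NNN) was found in none of the 10 windows and in 4.94% of all. Camp had no match to any of these words. A match is a description of letters. Lcn2, Ltf and Mmp8 each had both a C/EBP and a PU.1 match, and of these Lcn2 alone was called.

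S100a8 and S100a9 bind calcium and zinc and make up much of the protein of the neutrophil cytosol. S100a8 was at 142, 111 and 67.9 CPM in the 2-week controls, at 24.4, 18.9 and 31.3 CPM after 65 Gy and at 42.2, 17.8 and 16.8 CPM after 75 Gy. All 6 irradiated libraries of 2 weeks lay below all 3 controls. The log2 fold change was -2.10 at 65 Gy (SE 0.47, adjusted p = 0.0106) and -2.06 at 75 Gy (SE 0.47, adjusted p = 0.00576), that is to 0.233 and 0.24 times the control level.

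At 6 weeks S100a8 was at 134, 84.4 and 66.4 CPM in the controls, at 16.7 and 58.3 CPM after 65 Gy and at 47.2, 71.7 and 37.4 CPM after 75 Gy. Library 3142 of 75 Gy lay above the lowest control, and the 65 Gy libraries differed 3.5-fold from each other. The log2 fold changes of S100a8 were -1.34 (SE 0.53, adjusted p = 0.102) and -0.86 (SE 0.45, adjusted p = 0.151), neither of which was called. Without library 3140 the change at 65 Gy was -2.50 and was called (adjusted p = 0.0405). The effect at 6 weeks against that at 2 weeks differed by 0.76 (95% confidence interval -0.68 to 2.20) at 65 Gy and by 1.20 (-0.17 to 2.56) at 75 Gy. Neither difference was called.

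S100a9 was measured at 337, 235 and 159 CPM in the controls of 2 weeks, 49, 41.3 and 64.5 CPM after 65 Gy and 124, 35.4 and 26.4 CPM after 75 Gy. Again no irradiated library reached a control, although library 3132 of 75 Gy came close. S100a9 fell by 2.24 (SE 0.56, adjusted p = 0.0188) and by 1.97 (SE 0.55, adjusted p = 0.0181) on the log2 scale. The call at 65 Gy was lost without library 3129 (adjusted p = 0.0747) or 3130 (0.0706), and the call at 75 Gy without 3126 (0.0532), 3133 (0.0609) or 3134 (0.0721). At 6 weeks its levels were 285, 192 and 147 CPM in the controls, 39.1 and 152 CPM after 65 Gy and 111, 147 and 84.6 CPM after 75 Gy. Library 3140 of 65 Gy lay above the lowest control. The log2 fold changes of -1.12 and -0.87 were not called (adjusted p = 0.243 and 0.222).

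The 2 subunits kept nearly the same proportion. The mean log2 ratio of S100a9 to S100a8 lay between 1.06 and 1.30 in all 6 groups, and its SD within a group was at most 0.11 except for 75 Gy at 2 weeks (0.45, n = 3). In that group the ratio was 1.55 in library 3132 and 0.66 in the lowest library.

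Retnlg encodes a resistin-like protein secreted by neutrophils. Its level was 45.4, 47 and 24.3 CPM in the 2-week controls, 7.91, 13.8 and 12.3 CPM after 65 Gy and 20.6, 6.77 and 6.7 CPM after 75 Gy. The irradiated libraries lay below the controls in both cases, with a log2 fold change of -1.78 at each dose (SE 0.43, adjusted p = 0.0167 and 0.00859). The call at 65 Gy was lost without library 3127 (adjusted p = 0.0572), 3129 (0.0823) or 3131 (0.0526), and that at 75 Gy was lost when only these 2 groups were fitted (0.0757). At 6 weeks the controls were at 50, 32.8 and 25 CPM, the 65 Gy libraries at 11.4 and 19.8 CPM and the 75 Gy libraries at 13.7, 24.2 and 16.4 CPM. No irradiated library overlapped the controls, and the fold changes of -1.20 and -0.99 did not pass the threshold (adjusted p = 0.112 and 0.0809). The first was called without library 3132 (adjusted p = 0.0411) and with only the 2 groups fitted (0.0423).

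Mmp8, the neutrophil collagenase, did not follow Retnlg or the S100 genes. It was at 18.2, 21.1 and 12.1 CPM in the 2-week controls, at 28.4, 16 and 20.4 CPM after 65 Gy and at 20.2, 22.1 and 25.6 CPM after 75 Gy. At 6 weeks it was at 23.5, 14.3 and 13.1 CPM in the controls, 13.9 and 18.9 CPM after 65 Gy and 18.2, 27.3 and 23.4 CPM after 75 Gy. The groups overlapped in all 4 comparisons. The fold changes lay between -0.05 and 0.44 with SEs of 0.26 to 0.29, and the joint change was 0.28 with a 95% confidence interval of -0.07 to 0.63. The mean log2 ratio of Mmp8 to S100a8 was -2.61 and -2.47 in the controls of 2 and 6 weeks, -0.22 and -0.05 after 65 and 75 Gy at 2 weeks and -0.94 and -1.15 at 6 weeks. All 11 irradiated libraries lay above all 6 controls in this ratio, and the lowest of them was at -1.63. The region of Mmp8 overlaps that of the predicted gene Gm31751, and it is not stated whether reads were counted by strand.

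Lcn2, which encodes lipocalin 2, a protein that withholds bacterial siderophores, rose in every irradiated group. It was at 176, 85.3 and 116 CPM in the 2-week controls, at 992, 829 and 784 CPM after 65 Gy and at 983, 805 and 863 CPM after 75 Gy. At 6 weeks the levels were 91.3, 79.2 and 79.6 CPM in the controls, 602 and 644 CPM after 65 Gy and 681, 709.9 and 786 CPM after 75 Gy. The lowest irradiated library, at 602 CPM, lay above the highest control, at 176 CPM.

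The log2 fold change of Lcn2 was 2.79 (SE 0.20, adjusted p = 1.25e-06) at 65 Gy and 2.81 (SE 0.20, adjusted p = 7.57e-07) at 75 Gy at 2 weeks. At 6 weeks it was 2.90 (SE 0.21, adjusted p = 1.1e-06) and 3.12 (SE 0.20, adjusted p = 2.16e-07), an 8.7-fold higher level after 75 Gy. The fold change differed between the times by 0.11 (95% confidence interval -0.49 to 0.72) at 65 Gy and by 0.31 (-0.26 to 0.88) at 75 Gy. Between the doses Lcn2 differed by 0.02 (-0.38 to 0.43) at 2 weeks and by 0.22 (-0.23 to 0.67) at 6 weeks. In the controls the level was 0.59 lower at 6 than at 2 weeks on the log2 scale (SE 0.19), which was not called (adjusted p = 0.146).

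**Figure D2:**
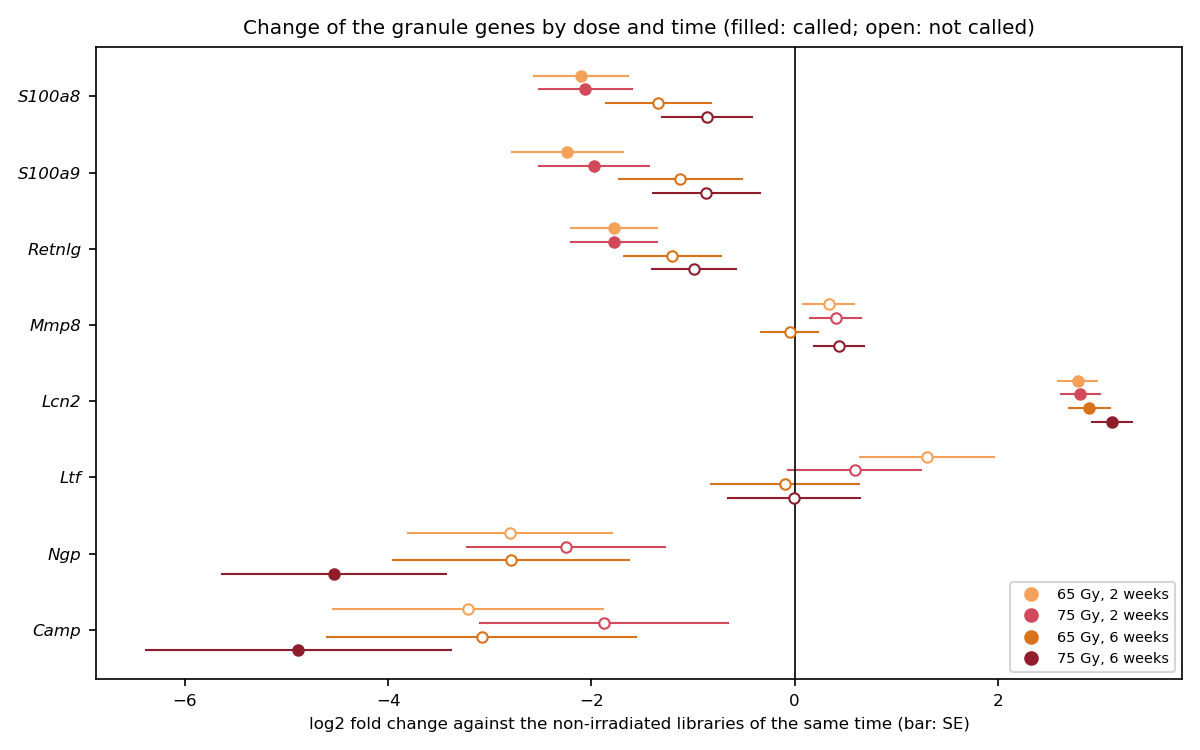
Log2 fold change of 8 genes against the controls of the same time, with bars of 1 SE and colours for dose and time. Filled points were called. Lcn2 lies between 2.79 and 3.12, and S100a8, S100a9 and Retnlg lie between -2.24 and -0.86. Mpo and Elane are not plotted because groups held libraries without counts.

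Per kilobase of exon, the order of the genes changed between groups. The length used was the union of all annotated exons of a gene, 2623 bases for Lcn2 and 522 for S100a9. It can exceed the length of the mRNA that was sequenced, so the order of different genes within a group is uncertain. In the 2-week controls S100a9 was at 466 ± 171 CPM per kb (SD, n = 3), S100a8 at 154 ± 53.5, Retnlg at 65.6 ± 21.3 and Lcn2 at 47.9 ± 17.6. After 75 Gy at 2 weeks Lcn2 was first with 337 ± 34.5 CPM per kb, before S100a9 with 119 ± 103, S100a8 with 36.9 ± 20.8 and Retnlg with 19.2 ± 13.5. At 6 weeks after 75 Gy Lcn2 (277 ± 20.8 CPM per kb) and S100a9 (218 ± 59.6) were neighbours within about 1 SD of S100a9. Ngp, Camp, Ltf and Mmp8 stayed at or below 12.6 CPM per kb in every group. Elane and Mpo were the lowest pair in all 6 groups.

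**Figure D3:**
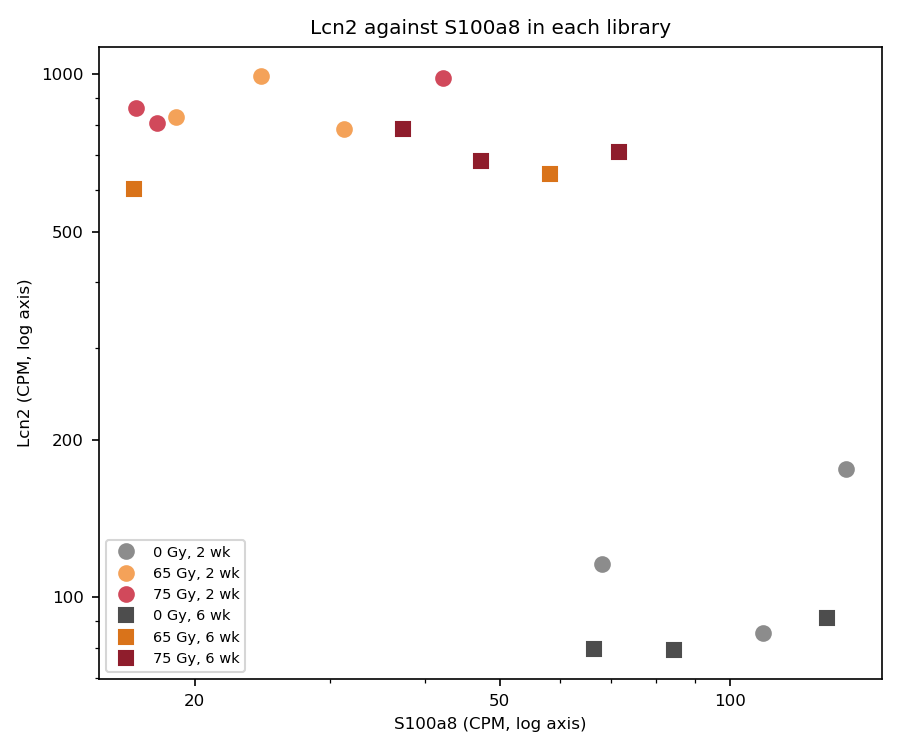
Lcn2 against S100a8 in the 17 libraries, in CPM on log axes. Circles are libraries of 2 weeks and squares of 6 weeks, and colours give the dose. The 6 controls lie at the lower right, with Lcn2 at 79.2 to 176 CPM, and the 11 irradiated libraries at the upper left, with S100a8 at 16.7 to 71.7 CPM.

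The mean log2 ratio of Lcn2 to S100a8 was 0.24 and -0.13 in the controls of 2 and 6 weeks, 5.15 and 5.24 after 65 and 75 Gy at 2 weeks, and 4.32 and 3.85 at 6 weeks. No irradiated library was below 3.31 and no control above 0.77. Markers of other cells that can express Lcn2 are given beside it. The 7 monocyte and macrophage markers summed to between 368 and 436 CPM in the controls and between 701 and 1603 CPM in irradiated libraries, with none at 0. The 9 airway secretory markers summed to between 14016 and 18353 CPM in the controls and between 5979 and 13120 CPM in irradiated libraries, although edgeR and DESeq2 called 0 of the 9 in the comparisons of a dose with its controls, in each of which 1 had an unadjusted p below 0.05. This was Scgb1a1, the secretory protein of club cells, which made up most of the sum and lay between -0.84 and -0.54 on the log2 scale. The 8 alveolar type 2 markers overlapped, at 21437 to 31049 and 18004 to 33285 CPM. The part of these cells in the change of Lcn2 was not tested.

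Ltf, lactoferrin, an iron-binding protein of secondary granules, varied widely within groups. It was at 16.9, 26.6 and 7.4 CPM in the 2-week controls, at 63.2, 28.1 and 33.9 CPM after 65 Gy and at 13.5, 20.3 and 42.9 CPM after 75 Gy. At 6 weeks the controls were at 36.5, 5.13 and 41.2 CPM, the 65 Gy libraries at 26 and 25.7 CPM and the 75 Gy libraries at 13.2, 21.5 and 47.8 CPM. Only the 65 Gy libraries of 2 weeks lay apart from their controls. The log2 fold change there was 1.30 with an SE of 0.67 and was not called (adjusted p = 0.244). The other 3 were 0.59, -0.09 and -0.01 with SEs of 0.66 to 0.74. Bpifb1, an airway secretory marker, also varied widely in the controls, at 1.68, 153 and 6.92 CPM at 2 weeks. In those of 6 weeks it was at 25.9, 3.14 and 146 CPM, and after 65 Gy at 2 weeks at 66.5, 26.2 and 57.6 CPM. The part of airway cells in the spread of Ltf was not tested.

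Ngp, neutrophilic granule protein, is a cystatin-related protein of secondary granules. It was at 21.1, 3.08 and 6.16 CPM in the 2-week controls, at 0.791, 0.999 and 2.58 CPM after 65 Gy and at 2.96, 2.31 and 1.13 CPM after 75 Gy. All irradiated libraries lay below the controls, but the 2-week changes of -2.80 (SE 1.01) and -2.25 (SE 0.98) were not called (adjusted p = 0.0907 and 0.116). Without library 3126, the high control of that time, they were -1.67 and -1.11 (adjusted p = 0.314 and 0.446). Without control library 3135, which belongs to the other time and enters only through the shared spread, both were called (adjusted p = 0.0193 and 0.026). The change at 65 Gy was also called by DESeq2 (adjusted p = 0.0421) and with only the 2 groups fitted (0.0447).

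At 6 weeks Ngp was at 41.3, 1.73 and 3.05 CPM in the controls, at 3.35 and 1.08 CPM after 65 Gy and at 0.656, 0.778 and 0.548 CPM after 75 Gy. The control library 3135 had 23.9 times the level of the lowest control. The 75 Gy libraries lay below all controls, and Ngp fell by 4.53 on the log2 scale (SE 1.11, adjusted p = 0.00572). Without library 3135 it was -1.85 and was not called (adjusted p = 0.0793), and without 3126 and 3135 it was -1.84 and was called (adjusted p = 0.0312). At 65 Gy the groups overlapped, and the change was -2.79 (SE 1.17, adjusted p = 0.124), or -0.11 without library 3135. In the joint comparison Ngp fell by 3.09 (SE 0.59, adjusted p = 0.000709), and it stayed called without both libraries, at -1.18 (adjusted p = 0.0176).

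Camp, the precursor of the cathelicidin antimicrobial peptide, showed the same unequal controls. It was at 6.62, 0.428 and 0.667 CPM in the 2-week controls, at 0.226, 0.111 and 0.499 CPM after 65 Gy and at 1.4, 0.325 and 0.387 CPM after 75 Gy. At 6 weeks the controls were at 9.39, 0.357 and 0.209 CPM, the 65 Gy libraries at 0.594 and 0.188 CPM and the 75 Gy libraries at 0.0492, 0.212 and 0.073 CPM. The groups overlapped in all 4 comparisons.

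Among single doses Camp was called lower only at 75 Gy and 6 weeks, where it fell by 4.88 (SE 1.51, adjusted p = 0.0202), and its 75 Gy libraries held 19 counts in all. Without library 3135 the change was -1.33 (adjusted p = 0.458). The call was also lost without 3141 (adjusted p = 0.0658) or 3143 (0.0762), and DESeq2 gave no adjusted p for it. The joint change over all irradiated groups was -3.26 (SE 0.78, adjusted p = 0.00354), and -0.36 (adjusted p = 0.606) when libraries 3126 and 3135 were both left out. At 65 Gy and 2 weeks the change of -3.21 (SE 1.34, adjusted p = 0.144) was -0.98 without both. At 75 Gy and 2 weeks the change of -1.87 turned to 0.37 without these 2 libraries, and at 65 Gy and 6 weeks -3.08 turned to 0.48.

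Mpo and Elane, the enzymes of primary granules, were at or near 0 in most libraries. Mpo had 123, 0 and 6 counts in the 2-week controls, 2, 4 and 14 counts after 65 Gy and 29, 0 and 7 counts after 75 Gy. At 6 weeks it had 322, 0 and 4 counts in the controls, 45 and 0 counts after 65 Gy and 0, 5 and 0 counts after 75 Gy. Library 3126 held all but 6 of the Mpo counts of its group and library 3135 all but 4. A count of 0 allows up to 3 counts, which is between 0.0443 and 0.0642 CPM depending on the library and covers counting error only.

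Elane had 51, 0 and 0 counts in the 2-week controls and 36, 0 and 2 counts in the 6-week controls. After irradiation it had 4, 0 and 4 counts (65 Gy, 2 weeks), 10, 0 and 4 (75 Gy, 2 weeks), 17 and 0 (65 Gy, 6 weeks) and none in the 3 libraries of 75 Gy at 6 weeks. Of Mpo and Elane edgeR and DESeq2 called 0 in the comparisons of a dose with its controls, and 1 had an unadjusted p below 0.05, after 75 Gy at 6 weeks. In the joint comparison Mpo was called lower (adjusted p = 0.0306) and Elane was not (adjusted p = 0.0784). The joint change of Mpo was no longer called without library 3126 (adjusted p = 0.531), 3135 (0.837), 3140 (0.0682) or 3143 (0.0517), and it turned to 1.45 without both 3126 and 3135. The joint change of Elane was -3.03, and 0.63 without library 3126 and -1.32 without 3135, none of which was called. Without both libraries Elane did not pass the filter on low counts. No fold change is given for single doses, since groups held libraries at 0. Mpo overlaps the predicted gene Gm34064, so its few counts may be shared with it.

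Control libraries 3126 and 3135, the highest in early granule mRNA, were also the highest controls in some genes of other marrow lineages. Of 13 erythroid markers 12 were in the table. Slc4a1, the anion exchanger of red cells, had 496 counts in library 3126 and 1371 in library 3135, against 78 to 256 in the other 4 controls. Rhag had 33 and 56 counts against 0 to 4, and Klf1, a transcription factor of erythroid precursors, had 36 and 43 against 2 to 5. Not every erythroid marker set both libraries apart. Alas2 was at 57.1 CPM in library 3126, against 83.9 and 85.3 CPM in the other 2-week controls, and Epor had 152 counts against 105 and 169. The eosinophil granule genes Epx (11 and 54 counts) and Prg2 (78 and 133) were highest among the controls in libraries 3126 and 3135, and Epx was at 0 in the other 4 controls. Ctsg, another protease of primary granules, had 34 and 21 counts in these 2 libraries and 0 in the other 4 controls.

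The part of blood or marrow in these libraries was not tested. The summed erythroid markers, mostly haemoglobin, did not single the 2 libraries out, at 4018 and 3763 CPM against 2985 to 4060 CPM in the other controls. Irradiated libraries 3132 and 3138, which had the next highest Mpo and Elane counts, had 22 and 14 counts of Rhag. Slc4a1 had 744 counts in library 3132 and 566 in irradiated library 3129. Library 3129 had 2 counts of Mpo and 0 of Rhag and of Klf1. Of the 5 marrow B cell precursor markers, Rag1 had 53 counts in library 3135 and 10 in library 3126, against 0 to 18 in the other controls. Irradiated library 3129 had 38. In library 3126 Dntt (18 counts) and Vpreb3 (337) lay within the range of the other 2-week controls (11 to 34 and 316 to 455). Vpreb1 had 12 and 14 counts in libraries 3126 and 3135, against 3 to 11 in the other controls. Bpi, a further primary granule gene, was at 0 in all 17 libraries.

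**Figure D4:**
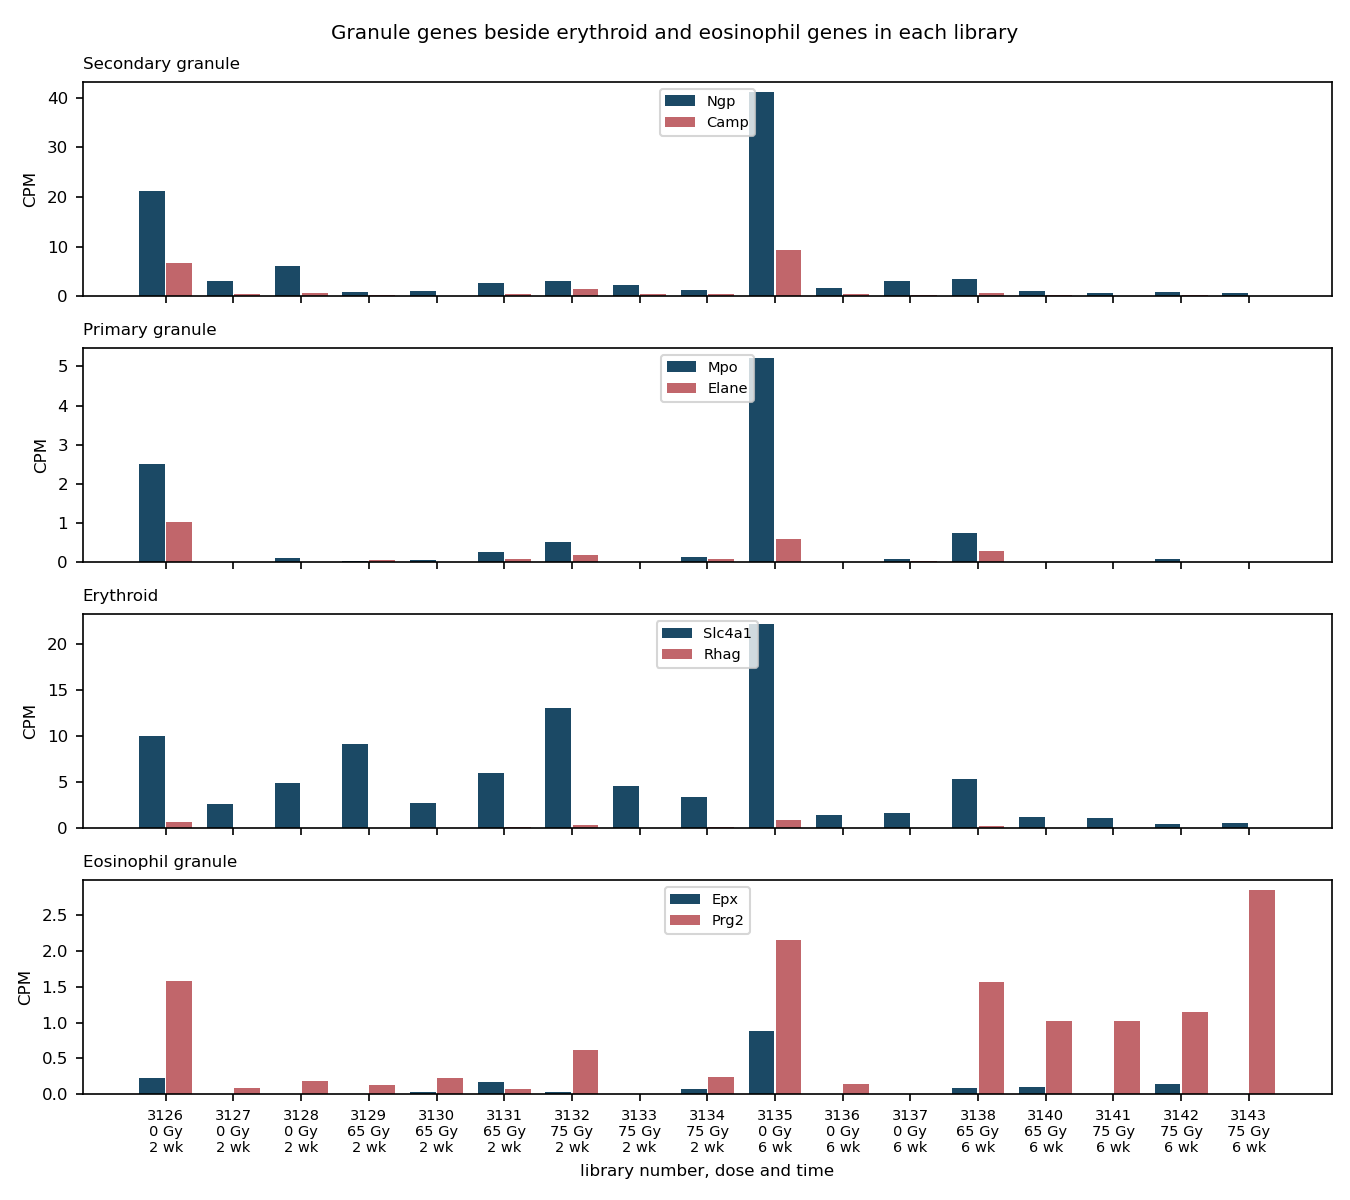
CPM of 2 genes each of secondary granules, primary granules, erythroid cells and eosinophil granules in each library, with bars from 0 and libraries ordered by group. Control libraries 3126 and 3135 hold the highest bars of Ngp, Camp, Mpo, Elane and Rhag.

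In the log2 CPM within the control groups, Mpo, Elane, Camp and Ngp varied more than at least 97.2% of all genes tested, at either time. This ranking did not account for level, and low counts, as of Mpo and Elane, spread more on the log2 scale through counting error. S100a8, S100a9 and Retnlg were between the percentiles 82.6 and 86.7, and Mmp8 between 73.7 and 84.3. After 75 Gy at 6 weeks the level of Ngp varied by an SD of 0.24 (n = 3), against 2.43 (n = 3) in its controls.

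Between the doses none of the 10 genes was called at either time. None of them had an unadjusted p of at most 0.05 in these 2 comparisons, DESeq2 also called 0, and edgeR called 0% of all genes. The intervals were wide for some genes. S100a8 was 0.04 higher after 75 than after 65 Gy at 2 weeks on the log2 scale (95% confidence interval -0.93 to 1.01) and 0.48 higher at 6 weeks (-0.61 to 1.57). Without overlap between the doses at 6 weeks were Ngp, which was lower after 75 Gy (15.3% of all genes), and Lcn2, which was higher (15.6%). For Ngp the difference was -1.74 (-4.19 to 0.71).

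Between the control groups of the 2 times edgeR called 0 of the 10 genes, against 0.576% of all genes. Only Lcn2 had an unadjusted p below 0.05, and DESeq2 called 0. The tests of whether the effect of a dose differed between 6 and 2 weeks called 0 of the 10 genes at 65 Gy (0.0136% of all genes) and 0 at 75 Gy (0.254%), with 0 unadjusted p-values below 0.05 at both doses and 0 calls by DESeq2.

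Genes that mature neutrophils express at the surface or late in their life fell in part. Of 14 such genes, 6 were called lower after 65 Gy and 7 after 75 Gy at 2 weeks, and 3 and 4 at 6 weeks, and their median log2 fold change was -0.99, -1.04, -0.86 and -0.72. Cxcr2, the receptor for the chemokines of neutrophils, was lower by 1.53, 2.12, 1.40 and 1.13 in these comparisons and was called in all 4. Asprv1 (-1.97, -1.98, -1.67 and -1.37) was likewise called in all 4, and Stfa2l1 in 3 (-1.84, -2.27 and, after 75 Gy at 6 weeks, -1.42). Csf3r, the receptor for G-CSF, was also called in all 4 (-1.14, -1.38, -1.40 and -1.47), and Ly6g, the surface marker of mouse neutrophils, at 2 weeks (-2.03 and -2.44). Both genes of this list that were called higher were so after 75 Gy at 6 weeks. They were the lectin receptor Clec4d (1.25) and Hdc, the histamine-forming enzyme that mast cells also express (1.03, and 0.98 without library 3143). At 2 weeks Hdc had means of 115, 128 and 125 CPM in the controls and after 65 and 75 Gy. At 6 weeks its means were 74, 121 and 151 CPM. The call of Csf3r after 65 Gy was lost at 2 weeks without any of 5 single libraries, 3127 to 3131 (adjusted p of 0.0518 to 0.073), and at 6 weeks without 3138 (0.162). That of Ly6g after 65 Gy was lost without 3126, 3127, 3129 or 3130 (0.0591 to 0.0819). The 14 genes summed to between 427 and 568 CPM in the controls and between 270.1 and 407 CPM after irradiation, without overlap. Without library 3129, 3 instead of 6 were called after 65 Gy at 2 weeks, and with libraries 3126 and 3135 both left out 4 were. After 65 Gy at 6 weeks, 6 were called without library 3140.

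Some chemokines that attract neutrophils moved the other way. Of 6 attractants and growth factors tested, 4 were called higher after both doses at 2 weeks, 3 after 65 Gy and 4 after 75 Gy at 6 weeks, and none lower. Cxcl15 and Csf3 were called in none of these comparisons. The summed level of the list overlapped, at 1069 to 2573 CPM in the controls and 1586 to 2572 CPM in irradiated libraries. The 4 genes called had group means of at most 7.7 CPM, so this sum came mostly from the other genes of the list. Cxcl1 rose by 3.16, 2.74, 2.66 and 2.89 on the log2 scale and Cxcl5 by 3.28, 3.28, 2.78 and 3.51. Both stayed at low levels, Cxcl1 with a mean of at most 7.7 CPM and Cxcl5 with at most 4.52 CPM in any group. Cxcl3 was called in all 4 comparisons (3.12, 3.62, 3.07 and 3.53) from controls with 24 counts in all at 2 weeks and 9 at 6 weeks. Cxcl2 was called in 3 (1.71, 1.79 and 1.22), but not after 65 Gy at 6 weeks (0.83, adjusted p = 0.28). Fitted with their 2 groups alone, Cxcl3 and Cxcl2 were not called after 75 Gy at 2 weeks (adjusted p = 0.0637 and 0.087), and 2 of the 6 genes were. Without library 3134 Cxcl2 was not called there either (0.98, adjusted p = 0.0891), and Cxcl3 was at 2.62. At 65 Gy and 2 weeks the call of Cxcl2 was lost without any 1 of the 6 libraries compared (0.0532 to 0.0944), and at 75 Gy and 6 weeks without any of 11 single libraries (0.0506 to 0.147). That of Cxcl3 at 65 Gy was lost at 2 weeks without 3128 or 3129 (0.0519 and 0.0539) and at 6 weeks without any of 12 single libraries (0.0509 to 0.185). Cxcl5 was not called at 65 Gy and 6 weeks without 3138 (0.0597). The list had 2 calls after 65 Gy at 2 weeks without library 3128 or 3129, and 1 after 65 Gy at 6 weeks without library 3138.

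Other genes of secondary and tertiary granules did not move together. Of 12 such genes 3 were called higher and 1 lower after 65 Gy at 2 weeks, 4 and 1 after 75 Gy, 3 and 1 after 65 Gy at 6 weeks and 3 and 2 after 75 Gy. Mmp9, the gelatinase of tertiary granules, was lower in all 4 comparisons, by 1.79, 2.36, 1.74 and 1.68. Cd177, a surface glycoprotein of neutrophils that is stored in secondary granules, rose instead by 1.58 after 75 Gy at 2 weeks and by 2.47 and 3.33 at 6 weeks, when its mean level was 46.1 and 83.7 CPM against 8.29 CPM in the controls. Cybb, the NADPH oxidase subunit that macrophages share, rose in all 4 (1.48, 2.22, 1.31 and 1.40), and Slc11a1, a metal transporter also found in macrophages, at 2 weeks (1.44 and 2.04). After 75 Gy at 2 weeks library 3134 was the highest for these genes. Without it Cd177 was at 0.80 and was not called (adjusted p = 0.0897), and Cybb and Slc11a1 were at 1.36 and 1.37 and were called. The call of Cd177 was also lost without 3128 (0.052), and that of Cybb at 65 Gy without 3127 (0.0639) at 2 weeks and without any of 5 single libraries (0.05 to 0.142) at 6 weeks. Mmp9 was not called at 65 Gy and 6 weeks without 3138 (0.0893). Mmp25, a membrane-bound metalloprotease, rose at 2 weeks (1.05 and 1.23), calls that were lost at 65 Gy without any 1 of the 6 libraries compared and at 75 Gy without 3134 (0.80), and Chil3, which macrophages express abundantly, at 6 weeks (2.11 and 1.75). Itgb2l, an integrin-like gene of neutrophils, was lower after 75 Gy at 6 weeks by 2.73, and without library 3135 it was at -1.63 and was not called (adjusted p = 0.0728). Of 4 further primary granule genes tested 1 was called in 1 comparison: Ctsc, which activates the granule proteases and is also abundant in macrophages, was 1.02 higher after 75 Gy at 6 weeks. Its mean level was 588 and 796 CPM after 65 and 75 Gy at 2 weeks, against 421 CPM in the controls. At 6 weeks it was 501 and 594 CPM, against 293 CPM in the controls.

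Inhibitors of the granule proteases rose in part, 2 of 6 tested at each dose at 2 weeks and 3 and 4 at 6 weeks, with none lower. Timp1, an inhibitor of metalloproteases such as Mmp8 and Mmp9, rose by 1.81, 2.58, 2.42 and 2.63. Its call at 65 Gy and 2 weeks was lost without 3127, 3128 or 3129 (adjusted p of 0.0557 to 0.0772), and at 75 Gy and 2 weeks it was at 1.99 without 3134. Serpina3n rose by 1.21 and 1.5 at 6 weeks and Slpi, which inhibits elastase, by 1.01 after 75 Gy at 6 weeks. Mean levels of Serpina3n were 270 and 264 CPM against 145 CPM in the controls at 2 weeks, and 206 and 251 against 89 CPM at 6 weeks. Those of Slpi were 26.7 and 29.7 against 22.2 CPM, and 26.3 and 33 against 16.4 CPM. In the controls both were lower at 6 than at 2 weeks, by 0.70 and 0.44 on the log2 scale, which was not called. The call of Serpina3n at 65 Gy was lost without library 3140 (adjusted p = 0.0771). Slpi was below the limit of 1 without library 3135 (0.96), 3137 (0.85) or 3143 (0.97). Serpina1b was called in all 4 comparisons, with no count in the 6 controls and 13, 11, 25 and 41 counts in the irradiated groups, and it belongs to a family of near-identical genes, so that its reads are uncertain. Its call at 65 Gy and 2 weeks was lost without any of 4 single libraries. Of the 4 receptors of the proteins described here (Tlr4, Ager, Slc22a17 and Lrp1) 0 were called by edgeR or DESeq2 in these comparisons. Their log2 fold changes lay between -0.53 and 0.52, and up to 2 of them had an unadjusted p below 0.05 in a comparison. Of 8 transcription factors of granulocytes 1 was called, Spi1, which encodes PU.1 and is also a factor of macrophages, with a rise of 1.07 after 75 Gy at 2 weeks. Without library 3134 the rise was 0.67.

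Among markers of other cells, Cd68 rose by 2.14, 2.48, 2.14 and 2.22 and Adgre1 by 1.39, 1.77, 1.46 and 1.83, both of macrophages. Marco, of alveolar macrophages, rose in all but 75 Gy at 6 weeks (2.43, 2.62 and 1.74), and Ccr2, of monocytes, in all but 65 Gy at 2 weeks (1.87, 1.48 and 1.91). At 65 Gy and 6 weeks Marco was not called without library 3138 (adjusted p = 0.0613), nor Ccr2 without 3140 (0.0752). In the single-dose comparison in which Ngp and Camp were called lower, 4 of 6 platelet genes were called lower as well. Gp1ba fell by 1.62, Gp1bb by 1.34, Itga2b by 1.29 and Gp9 by 1.22. In the controls these 4 genes were higher at 6 than at 2 weeks, by 0.94, 1.11, 0.76 and 0.89 on the log2 scale. None of these differences was called by edgeR, and DESeq2 called 1 gene of the list. Pf4 of the same list went the other way, at 11.5, 12.4 and 14.5 CPM against 8.4, 7.77 and 7.8 CPM in the controls. Ppbp was lower, at 8.27, 8.05 and 7.34 CPM against 21.3, 15.7 and 16.9 CPM. Of 12 erythroid genes 2 were called lower, Slc4a1 by 3.56 and Alas2 by 1.49. Without library 3135 Slc4a1 was at -1.11 and Gp9 at -0.97, and neither was called (adjusted p = 0.302 and 0.0758). Both calls were also lost without library 3142 (adjusted p = 0.063 and 0.0731) or 3143 (0.0602 and 0.055). After 65 Gy at 6 weeks 2 platelet genes were called lower, Gp1ba (-1.52) and Itga2b (-1.16), but not without library 3138 (-1.14 and -0.77), nor Itga2b without 3135 (-0.96). Ear6, an eosinophil-associated ribonuclease, rose at 2 weeks (2.1 and 3.5) and after 75 Gy at 6 weeks (1.82). Other eosinophil granule genes did not follow it at 2 weeks. Prg2 had 78, 4 and 10 counts in the controls, 8, 14 and 4 after 65 Gy and 35, 0 and 14 after 75 Gy. Epx had 11 counts or fewer in every library of that time. Of the lung markers Cldn5, of endothelium, fell by 1.12 after 75 Gy at 6 weeks. The calls of Ear6 were lost without any of 10 single libraries at 65 Gy and 2 weeks (adjusted p of 0.0507 to 0.148) and of 11 at 75 Gy and 6 weeks (0.05 to 0.171), and without 3126 its changes at 2 weeks were 3.03 and 4.43, and without 3135 that at 75 Gy and 6 weeks was 3.62. Of the 8 markers of alveolar type 2 cells 0 were called by edgeR or DESeq2, and the number with an unadjusted p below 0.05 was 0, 1, 1 and 6 in the 4 comparisons. Of the 5 markers of B cell precursors edgeR also called 0 and DESeq2 1, after 75 Gy at 2 weeks, and 1, 1, 0 and 0 had an unadjusted p below 0.05.

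The genes most like each of 3 members were ranked by the Pearson r of log2 CPM over the 17 libraries, which share groups and depth, so that r is a description. For Ngp these were Gm16077 (0.92), F730311O21Rik (0.88), S1pr4 (0.84), Itgb2l (0.84) and Mtg2 (0.82). Itgb2l reached at most 1.75 CPM. For S100a8 they were Cstdc4 (0.94), Ly6g (0.93), H2-Q10 (0.90), Gm39321 (0.90) and Cxcr2 (0.90). For Lcn2 they were Slc39a2, Saa3, Col22a1, Ubtd1 and Ctsd, all between 0.98 and 0.99. Saa3, an acute-phase protein, ranged from 0.236 to 131 CPM and Ctsd, a lysosomal protease, from 532 to 3740 CPM. No gene stood in more than 1 of these 3 sets.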

How the data were processed

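RNA was sequenced from 17 mouse lung libraries. From stranded mRNA libraries, the authors obtained paired reads, used Trimmomatic and HISAT2 (GRCm38.p6) and StringTie in turn, and deposited whole-number read counts per gene without normalization. The step from StringTie to counts and the strand setting are not given in the sources used here, and a table of genes by symbol does not tell how reads of overlapping genes were divided.

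The counts were fitted with edgeR 4.0.16 in R 4.3.3, with 1 coefficient for each of the 6 groups. The function filterByExpr (minimum count 10, minimum total 15) kept 22052 genes, and TMM factors scaled the libraries. P-values of the quasi-likelihood test were adjusted after Benjamini and Hochberg over all genes tested, and SEs belong to the fitted changes. Alternatives were no filter except 1 count, RLE factors, DESeq2 1.42.0, only the groups compared, no limit on the fold change and each library left out in turn. Leaving out libraries 3126 and 3135 together, and all alternatives for genes of the lists and for Elane, were added later, with the values known. The fits were tested on simulated data. The equal counts shared by any 2 libraries were checked and covered at most 3.69% of the genes tested. The members and lists were chosen with earlier results of these data known. Besides the members, at most 4 called genes per list are named, those with the smallest p in a comparison of a dose with its controls. Named after their values were seen were Csf3r, Ly6g, Clec4d, Mmp25, Chil3, Itgb2l, Bpi, Bpifb1, Rhag, Klf1, Epx, Prg2, Ctsg and Rag1. Exon lengths were taken from GENCODE M21 (GRCm38.p6) as the union of exons. Of the 13 erythroid markers, 1 was not in the table.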

Additional observations from a re-analysis of the deposited data

Results flagged for a closer look

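For Ltf, the 65 Gy libraries lay on opposite sides of the control mean at the 2 times, but close to it at 6 weeks. All 3 libraries of 2 weeks lay above the mean of their controls and both libraries of 6 weeks below it, with a mean log2 ratio to the control mean of 1.21 at 2 weeks and -0.094 at 6 weeks. In this form the difference was not tested. In the fit over all genes the effect of 65 Gy on Ltf at 6 weeks minus that at 2 weeks was -1.40 (SE 1) and did not pass the threshold (edgeR, adjusted p = 0.687). The controls of 6 weeks spanned an 8.03-fold range of Ltf.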

How the results depend on the processing

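The number of the 10 genes called changed by more than 1.5 times with the setting in each of the 4 comparisons of a dose with its controls. With only the groups compared in the fit, it was 2 at 75 Gy and 2 weeks and 2 at 65 Gy and 6 weeks. With single libraries left out it lay between 2 and 5 at 65 Gy and 2 weeks (2 without library 3129), between 1 and 2 at 65 Gy and 6 weeks (2 without 3132 or 3140) and between 1 and 4 at 75 Gy and 6 weeks (1 without 3135). At 75 Gy and 2 weeks it lay between 3 and 5, and in the joint comparison between 5 and 7. Lcn2 was called against controls under all settings.

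Directions turned for genes that were not called, except Mpo, which was called jointly. Without 1 library the log2 fold change ranged for Camp from -4.12 to 0.47 (65 Gy, 6 weeks) and from -2.87 to 0.36 (75 Gy, 2 weeks), for Ltf from -0.59 to 0.31 (65 Gy, 6 weeks), from -0.0019 to 1.08 (75 Gy, 2 weeks) and from -0.65 to 0.40 (75 Gy, 6 weeks), and for Mmp8 from -0.27 to 0.26 (65 Gy, 6 weeks). Between the doses it ranged for Lcn2 from -0.061 to 0.13 at 2 weeks and for S100a8 from -0.53 to 0.27 at 2 and from -0.17 to 1.63 at 6 weeks. The effect at 6 weeks minus that at 2 weeks ranged for Lcn2 from -0.20 to 0.33 at 65 Gy and from -0.0151 to 0.52 at 75 Gy, and at 65 Gy for S100a8 from -0.39 to 1.42 and for S100a9 from -0.15 to 1.80. With libraries 3126 and 3135 both left out, Camp was at 0.37 (75 Gy, 2 weeks) and 0.48 (65 Gy, 6 weeks), Ltf at 0.18 (65 Gy, 6 weeks) and 0.26 (75 Gy, 6 weeks), Mmp8 at 0.28 (65 Gy, 6 weeks), Mpo at 1.45 in the joint comparison, and the difference of the effects on Lcn2 at 65 Gy at -0.13. The cause was not tested. Over all alternatives of the genes named, 1765 values kept direction and side of the threshold, 41 lost a call, 7 gained it and 28 turned.

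No paired analysis was possible because the library numbers are all different and pair nothing across groups. With 1 library left in the group of 65 Gy at 6 weeks, that library was assumed to vary like those of other groups. Depth limits Mpo, Elane and Camp, which had few or no counts in most libraries.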
